A study of Mus musculus with 6 samples.

Results

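The 9 genes that encode VEGF ligands and their receptors were followed in vascular endothelial cells (VECs) of the mouse retina at P7.5. They are the ligand genes Vegfa, Vegfb, Vegfc and Pgf, the receptor genes Flt1, Kdr and Flt4, and the co-receptor genes Nrp1 and Nrp2. They were chosen by gene symbol among the 55487 genes listed, and all 9 were found. VECs were sorted from 3 control pups (tdTomato FL/+;Pdgf-icreER) and 3 Bmal1;CKO pups (Bmal1 FL/FL;tdTomato FL/+;Pdgf-icreER), on a C57BL/6 J background. Both groups carry the tdTomato reporter and the Pdgf-icreER transgene, a tamoxifen-inducible Cre that also expresses GFP, and both were given tamoxifen daily, P0.5 through P2.5. The sorting gate took cells positive for GFP and tdTomato, so recombination of the reporter, and not of Bmal1 itself, defined the cells. The comparison asks whether transcript levels of the VEGF system differ in VECs when Bmal1, an activator of the circadian clock, is deleted.

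Flt1 (VEGFR1), Kdr (VEGFR2) and Flt4 (VEGFR3) are receptor tyrosine kinases. VEGF-A signals mainly through KDR to drive endothelial proliferation, migration and sprouting, while FLT1 binds VEGF-A, VEGF-B and PlGF tightly with little kinase output and can act as a decoy. VEGF-C binds FLT4 and, once processed, KDR, and NRP1 and NRP2 hold ligands beside the kinases and also bind class 3 semaphorins. In the growing retina, VEGF-A is made largely by astrocytes, neurons and Müller glia ahead of the vessels, and KDR and FLT4 are prominent in the sprouting front.

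Values are normalized counts, which are reads on a gene divided by a size factor of the library. The libraries had 71145068 to 104017800 reads on genes, and 1 read was worth 0.715 to 1.41 normalized counts. Bmal1 itself, listed as Arntl, had 1700, 3489 and 2928 normalized counts in control libraries 1, 2 and 3 and 1779, 2747 and 2415 in Bmal1;CKO libraries 4, 5 and 6. The groups overlapped, and the value per gene also counts exons outside a floxed part, so it does not check the deletion. By ddPCR on sorted cells, the paper reported significantly lower Bmal1 transcript in the mutant. All 14 endothelial markers, such as Cldn5, a tight junction protein at 60099 to 201094 normalized counts, had at least 10 reads in every library. Markers of other retinal cells were present too, since 9 markers of microglia and macrophages summed to 1386180 to 4103350 normalized counts per library against 113985 to 352786 for the 14 endothelial markers. The 12 rod markers summed to 529948 to 888738. The Müller glia list summed to 4066670 to 16682500, but nearly all of this was Apoe. Apoe alone had 16583800 normalized counts in control library 1 and 3972120 in control library 3, the libraries of the highest and lowest sums. The sum of this list is therefore the level of 1 gene and does not measure the share of Müller glia. Each of the 9 VEGF genes is therefore read in a mixture, and the cells that gave its reads were not determined. Control library 1 stood apart, with the lowest mean log2 level of the pericyte, astrocyte, ganglion cell, amacrine and lymphatic markers and the highest of the endothelial, the microglia and macrophage, and the rod markers.

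The 9 genes lie on 7 chromosomes of GRCm38. Flt1 (ENSMUSG00000029648) and Kdr (ENSMUSG00000062960) are both on the reverse strand of chromosome 5, at chr5:147561604-147726011 and chr5:75932827-75978458. Flt4 (ENSMUSG00000020357) is on the forward strand at chr11:49609263-49652739. Vegfa (ENSMUSG00000023951) is at chr17:46016993-46032369, Vegfb (ENSMUSG00000024962) at chr19:6982473-6987651 and Pgf (ENSMUSG00000004791) at chr12:85166635-85177790, all on the reverse strand. Vegfc (ENSMUSG00000031520) at chr8:54077606-54187096, Nrp1 (ENSMUSG00000025810) at chr8:128358604-128503363 and Nrp2 (ENSMUSG00000025969) at chr1:62703285-62818695 are on the forward strand. Nrp1 contains Mir1903, and Nrp2 overlaps the antisense gene Gm29083 without shared exon bases. GENCODE M21 gives 13 transcripts of Vegfa and 6 of Flt1, but the table holds 1 value per gene, so soluble and membrane FLT1 or the VEGF-A splice forms were not analysed here.

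BMAL1 and its partner CLOCK bind the E-box CACGTG, so the start regions of the 9 genes were searched for it and for other elements of VEGF gene promoters. RefSeq windows of GRCm38.p6, from 250 bases before to 50 bases after a transcription start, matched 9 of 9 genes and gave 11 windows, since Vegfa and Pgf have more than 1. The bases upstream of the first exon are shown for Kdr and Flt1, whose levels ran most alike in these libraries, and for Vegfa, their main ligand. Capitals mark 4 elements on either strand. One is the hypoxia response core, the letters CGTG after A or G. Another is the GC box, GGGCGG. The remaining marks are a TATA box, spelled TATAAA, and the cyclic AMP response element, spelled TGACGTCA. The Kdr stretch is chr5:75978459-75978705, the Flt1 stretch chr5:147726012-147726261 and the Vegfa stretch chr17:46032378-46032627, all read on the reverse strand.
Kdr: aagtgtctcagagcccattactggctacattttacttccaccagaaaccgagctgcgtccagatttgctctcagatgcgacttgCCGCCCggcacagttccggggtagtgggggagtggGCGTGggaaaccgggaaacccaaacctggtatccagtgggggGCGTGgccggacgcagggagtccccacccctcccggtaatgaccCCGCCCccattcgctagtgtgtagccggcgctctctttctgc
Flt1: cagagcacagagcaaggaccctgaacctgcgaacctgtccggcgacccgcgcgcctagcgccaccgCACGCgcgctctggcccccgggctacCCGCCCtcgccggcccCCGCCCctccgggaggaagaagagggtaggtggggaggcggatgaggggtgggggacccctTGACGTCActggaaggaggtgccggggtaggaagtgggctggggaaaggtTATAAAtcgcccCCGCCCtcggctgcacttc
Vegfa: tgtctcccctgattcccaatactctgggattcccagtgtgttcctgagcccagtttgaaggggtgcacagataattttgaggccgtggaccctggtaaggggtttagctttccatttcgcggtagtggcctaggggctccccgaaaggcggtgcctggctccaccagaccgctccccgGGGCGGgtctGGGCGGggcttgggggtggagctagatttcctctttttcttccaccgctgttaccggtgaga

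The palindrome CACGTG was in 0 of the 11 windows and in 7.15% of all 32851 RefSeq windows of this length. The hypoxia core, which overlaps CACGTG where both occur, was in 7 of the 11 windows against 43.8% of all. In Kdr it stood 2 times upstream of the start, and in Vegfa 2 times in the window of the internal start on the same strand and not in the stretch shown. GC boxes, the sites of SP1-type factors, were in 10 of 11 windows against 35.7% of all, and the windows were 59.3% to 75.3% G and C against a median of 52.7%. Flt1 alone among the 9 held the TATA box (13.6% of all windows) and the cyclic AMP response element (1.79% of all), both searched for after the sequences had been seen. These are matches of letters in 300 bases, not measured binding.

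The VEGF genes differed widely in level when normalized counts were divided by exon length. Vegfb, the ligand of FLT1, was the highest of the 9 in all 6 libraries, with a mean of 3571 normalized counts per kb, above 91.3% of the tested genes. Kdr (1211 per kb), Flt1 (1168), Vegfa (929) and Nrp1 (872) followed. Between neighbours in this group of 4, the gene with the higher mean was the higher one in 3 of 6 libraries each time, so their order was not set beyond the spread. Vegfc had 375 per kb and was below Nrp1 in 6 of 6 libraries. Pgf (225), Flt4 (183) and Nrp2 (142) had the lowest means, again in an order that changed between libraries, and in control library 3 Vegfc, at 86.7 per kb, was below all 3. Vegfd, the other ligand of FLT4, had 0, 2 and 1 reads in control and 0, 0 and 24 in Bmal1;CKO and was not tested.

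**Figure D1:**
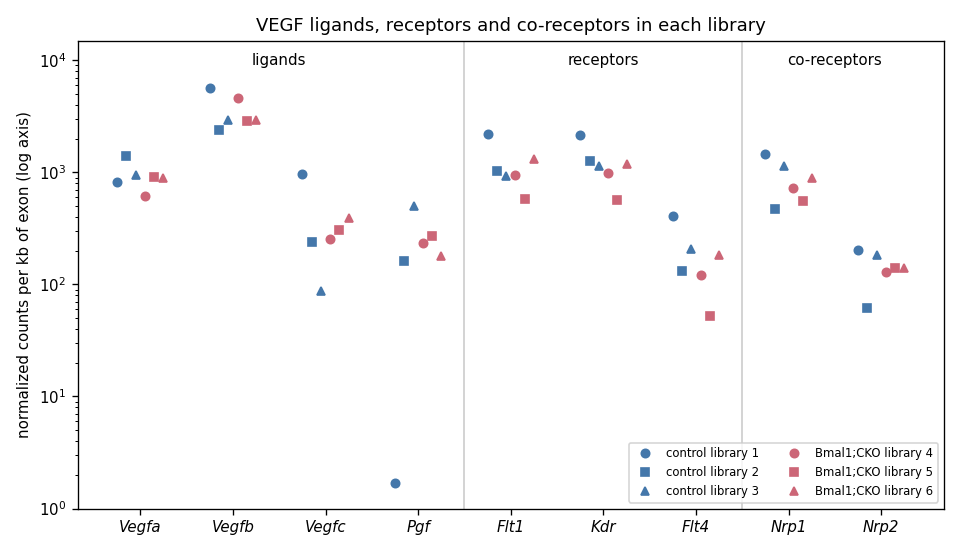
Normalized counts per kb of exon, on a log axis, of the 9 VEGF genes in each library, with control libraries in blue and Bmal1;CKO libraries in red. Vegfb is the highest gene in all 6 libraries, Flt1, Kdr, Vegfa and Nrp1 share a band, and Pgf of control library 1 lies alone at 1.70 per kb.

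Between the genotypes, the 3 receptor genes were lower in Bmal1;CKO in mean level, but none of the 9 genes passed the test. Kdr was at 0.599 of control (95% interval 0.330 to 1.09) and Flt4 at 0.471 (0.182 to 1.22), each with n = 3 per group. In the limma-trend fit over 20459 genes, 0 of the 9 had an adjusted p under 0.05, as did 0% of all tested genes, and 0 of 9 had an unadjusted p under 0.05 against 4.92% of all. In 0 of 9 did the libraries of one genotype all lie above those of the other, against 11.2% of all tested genes. The log2 fold change was below 0 in 5 of 9 and in 43.4% of all tested genes, with a median of -0.37 over the 9 and 0.11 over all. The 9 genes had 0 adjusted p under 0.05 by edgeR, DESeq2 and limma-voom as well, while over all genes DESeq2 called 67 and edgeR and limma-voom 0. By edgeR with either scaling and by DESeq2, 8 of 9 and 52.1% of all were below 0, with a median of -0.03 over all genes. Fewer endothelial cells in a sort and less RNA per endothelial cell cannot be told apart in these bulk samples.

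Kdr, the main signalling receptor of VEGF-A, had 19293, 11459 and 10214 normalized counts in control libraries 1, 2 and 3 and 8826, 5126 and 10717 in Bmal1;CKO libraries 4, 5 and 6. Control library 1 was the highest and Bmal1;CKO library 5 the lowest, and the groups overlapped only because Bmal1;CKO library 6 exceeded control library 3. The means were 13655 ± 4922 and 8223 ± 2844 (SD, n = 3 each). The log2 fold change was -0.74 (SE 0.37, 95% interval -1.60 to 0.12), with an adjusted p of 0.883 by limma-trend. It ran from -0.96 without Bmal1;CKO library 6 to -0.43 without Bmal1;CKO library 5, and so stayed negative with each library left out.

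Flt1, the high-affinity receptor that limits free VEGF-A, had 29837, 13947 and 12507 normalized counts in control and 12776, 7748 and 17851 in Bmal1;CKO. Control library 1 was again the highest and Bmal1;CKO library 5 the lowest, with the other 4 in between in mixed order. Flt1 had a log2 fold change of -0.52 (SE 0.43, 95% interval -1.53 to 0.49), adjusted p = 0.883 by limma-trend, and it shrank to -0.13 without control library 1.

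Flt4, the VEGF-C receptor that is kept in angiogenic sprouts and in lymphatic vessels, had 3347, 1076 and 1713 normalized counts in control and 992, 431 and 1503 in Bmal1;CKO. The lowest library, Bmal1;CKO library 5, had 431 and the highest, control library 1, had 3347, a range of 7.76-fold, the widest of the 3 receptors. Its fold change on the log2 scale was -1.09 (SE 0.59, 95% interval -2.46 to 0.28), adjusted p = 0.883 by limma-trend, and it ran from -1.49 to -0.59 with each library left out. The retina has no lymphatic vessels, and of the lymphatic markers Lyve1 and Mmrn1 had 0 reads in control library 1, where Flt4 was highest, and in Bmal1;CKO library 4. Reln and Pdpn of the same list had 452 and 28 reads in control library 1, and Prox1, which Müller glia and horizontal cells also express, had 1291 to 3522 normalized counts.

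Nrp1, the co-receptor that strengthens VEGF-A signalling through KDR, had 14258, 4639 and 11053 normalized counts in control and 7152, 5463 and 8646 in Bmal1;CKO. Control libraries 1 and 3 were above all 3 Bmal1;CKO libraries and control library 2 was below them. For Nrp1 the log2 fold change was -0.37 (SE 0.43), adjusted p = 0.889 by limma-trend, and its size rested on single control libraries, since it was -0.85 without control library 2 (adjusted p = 0.852, unadjusted p = 0.0288 by limma-trend) and -0.04 without control library 1. Nrp2, the co-receptor of VEGF-C and FLT4, had 2389, 732 and 2182 normalized counts in control and 1523, 1645 and 1648 in Bmal1;CKO. The 3 Bmal1;CKO values of Nrp2 lay within 1.08-fold of each other and inside the 3.26-fold range of control. Its log2 fold change was 0.04 (SE 0.48, adjusted p = 0.990 by limma-trend), and its sign turned with the library left out, from -0.51 to 0.34, and was negative at -0.14 by edgeR and DESeq2.

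Vegfa, the main angiogenic ligand, had 3539, 6016 and 4022 normalized counts in control and 2623, 3869 and 3829 in Bmal1;CKO. Control library 2 was the highest and Bmal1;CKO library 4 the lowest, while control library 1, highest for all 3 receptors, was the second lowest for Vegfa. Vegfa had a log2 fold change of -0.38 (SE 0.31, 95% interval -1.09 to 0.33), adjusted p = 0.883 by limma-trend, and it was negative with each library left out, from -0.54 to -0.16.

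Vegfb, a ligand of FLT1 alone among the receptors, had 9061, 3839 and 4669 normalized counts in control and 7443, 4645 and 4729 in Bmal1;CKO. Control library 1 and Bmal1;CKO library 4 were both high, and the other 4 libraries lay close together. Between genotypes the log2 difference was 0.0031 (SE 0.38, 95% interval -0.88 to 0.89), adjusted p = 0.999 by limma-trend, so differences within this interval were not excluded. Its sign turned to -0.067 by edgeR with TMM scaling.

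Vegfc, the ligand of FLT4, had 2385, 590.2 and 212 normalized counts in control and 627, 744 and 951 in Bmal1;CKO. The 3 control libraries spanned 11.2-fold around the Bmal1;CKO libraries, which spanned 1.52-fold. The log2 fold change of 0.19 (SE 0.82, adjusted p = 0.969 by limma-trend) was 1.11 without control library 1 and -0.64 without control library 3, and it was -0.44 by edgeR with TMM scaling.

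Pgf, which encodes the FLT1 ligand PlGF, had 4.92, 472 and 1457 normalized counts in control and 677, 780 and 526 in Bmal1;CKO. The value of control library 1 rests on 4 reads, whereas the other libraries had 481 to 2039 reads. The log2 fold change of 2.03 (SE 1.82, adjusted p = 0.883 by limma-trend) turned to -0.35 without control library 1 and rose to 3.62 without control library 3. By edgeR with TMM scaling it was 0.015 and by DESeq2 0.035. The pericyte markers were uneven in the same libraries. Pdgfrb, the PDGF-B receptor of pericytes, had 5 reads in control library 1 and 10026 in control library 3, and the 8 pericyte markers summed to 2637, 7170 and 46350 normalized counts in control and to 7682, 4211 and 6932 in Bmal1;CKO. Not all 8 followed Pdgfrb, since Notch3 had 273 normalized counts in control library 1 against 190 in control library 2 and 71.7 to 160 in Bmal1;CKO, and Rgs5 had 2327 in control library 1 and 1626 in Bmal1;CKO library 5. Astrocyte, ganglion cell, amacrine and lymphatic markers were also lowest in control library 1 by their mean log2 level. The astrocyte and ganglion cell markers were, like Pgf and the pericyte markers, highest in control library 3. The part of any of these lists in the Pgf value was not tested.

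**Figure D2:**
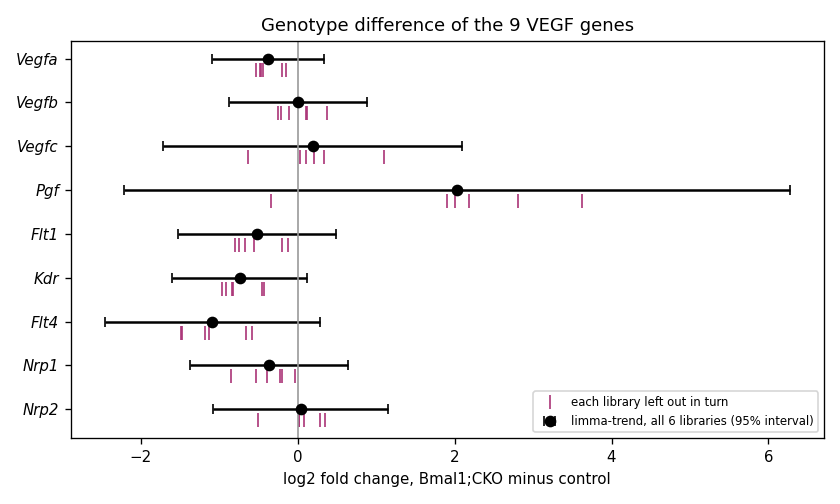
Log2 fold change of Bmal1;CKO over control for the 9 VEGF genes, with black points and 95% intervals from limma-trend and purple ticks for the value with each library left out. All 9 intervals include 0, and the ticks lie on both sides of 0 for Vegfb, Vegfc, Pgf and Nrp2.

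The log2 fold changes of the endothelial markers were themselves below 0 in 14 of 14 genes at a median of -0.43 (10 of 14 without control library 1 and 9 of 14 without Bmal1;CKO library 5), so the receptors were also compared with them in each library. By the sign of the fold change, other lists leaned to one side as well, with 11 of 12 rod markers lower (median -0.33), 8 of 9 microglia and macrophage markers higher (0.40) and 6 of 7 tested Müller glia markers higher (0.48), and the part of these lists in the VEGF values was not tested. The mean log2 level of the 14 markers was 12.77 ± 0.55 in control and 12.30 ± 0.64 in Bmal1;CKO (SD, n = 3 each), with overlap between genotypes (exact permutation p = 0.5, two-sided). Relative to this mean, Kdr was the 1 VEGF gene whose groups separated, while relative to the median of the markers Flt4 separated too. The log2 level of Kdr stood 0.83, 0.97 and 0.92 above the marker mean in control and 0.70, 0.71 and 0.50 above it in Bmal1;CKO. The difference was -0.27, and the two-sided exact permutation p was 0.1, the smallest that 3 against 3 libraries allow. After Benjamini-Hochberg adjustment over the 9 VEGF genes this permutation p was 0.9. Such a separation relative to the mean, in either direction, was seen in 1 of 9 VEGF genes and in 6.49% of all tested genes. The share over all genes was not computed for the median, so the separation of Flt4 has no such background beside it. The difference of Kdr was -0.49 to -0.20 over the 8 alternatives run for it.

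Flt1 varied least against the mean of the endothelial markers, at 1.46, 1.25 and 1.21 above their mean log2 level in control and 1.23, 1.31 and 1.23 in Bmal1;CKO. The difference was -0.05 (two-sided exact permutation test, p = 0.8), and against the median of the markers it was -0.27 (exact permutation p = 0.2). Flt4 lay below the marker mean, at -1.70, -2.45 and -1.66 in control and -2.46, -2.86 and -2.34 in Bmal1;CKO. Its difference was -0.62 (exact permutation p = 0.2), and the groups overlapped through control library 2. Against the median of the markers it was -0.84 and the groups did not overlap (exact permutation p = 0.1, the smallest possible). Among the other 6 genes, differences of Bmal1;CKO from control were 0.09 for Vegfa, 0.47 for Vegfb, 0.66 for Vegfc, 0.10 for Nrp1 and 0.51 for Nrp2, and Pgf ran from -10.84 in control library 1 to -1.89 in control library 3, with overlapping groups and exact permutation p from 0.4 to 0.9. Those of Vegfa, Pgf, Flt1 and Nrp1 changed sign in at least 1 alternative. A total of 9 such tests against the marker mean was run, and the Benjamini-Hochberg adjusted permutation p was 0.9 for each.

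**Figure D3:**
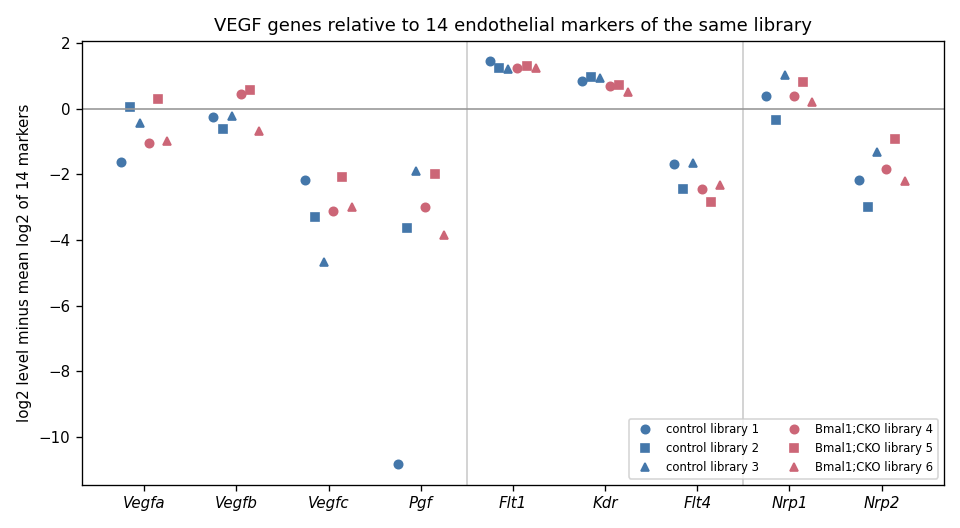
Log2 level of each VEGF gene minus the mean log2 level of 14 endothelial markers of the same library, with control in blue and Bmal1;CKO in red. Flt1 lies between 1.21 and 1.46 in all libraries, the 3 Bmal1;CKO points of Kdr lie below its 3 control points, and the 7 other genes scatter over more than 1 log2 unit.

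Ratios between genes of one library do not depend on its size factor. Per exon length, the ratio of Flt1 to Kdr was 1.03, 0.814 and 0.819 in control and 0.968, 1.01 and 1.11 in Bmal1;CKO, so the 2 receptors had similar levels on this scale. That similarity depends on the length used, the union of exons over all transcripts, which was 13504 bases for Flt1 and 9030 for Kdr. Before division by length, Flt1 had more normalized counts than Kdr in every library. Flt4 was 0.0922 to 0.190 of Kdr, and Nrp2 was 0.130 to 0.249 of Nrp1. The Nrp2 to Nrp1 ratio was 0.138, 0.130 and 0.163 in control and 0.176, 0.249 and 0.157 in Bmal1;CKO, with 1 Bmal1;CKO library inside the control range. Among the ligands, Vegfb was 1.70 to 7.58 times Vegfa, Vegfc 0.0923 to 1.18 times and Pgf 0.00205 to 0.535 times. The groups overlapped in all 6 ratios, and the two-sided exact permutation p was 0.2 to 0.7. Adjusted by Benjamini-Hochberg over the 6 ratios, this permutation p was 0.6 to 0.7.

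How alike 2 genes ran across the 6 libraries was measured as the root mean square difference of their log2 levels, each centred on its own mean. Flt1 and Kdr were the closest pair of the 9, at 0.17, and Nrp1 and Nrp2 the next, at 0.30. Flt4 lay at 0.40 from Kdr and 0.42 from Flt1. Against the mean of the endothelial markers, Flt1 lay at 0.08, Kdr at 0.16, Flt4 at 0.43, Nrp1 at 0.44, Vegfb at 0.48, Vegfa at 0.66, Nrp2 at 0.67, Vegfc at 0.85 and Pgf at 3.06. Among 15609 genes compared, Kdr was most like Palmd (0.09), Cbx5 (0.13) and Gimap4 (0.15), and Flt1 most like Slc7a1 (0.10), Emcn (0.12) and Spock2 (0.13), of which Emcn is one of the endothelial markers. Nrp1 was most like Ccnf (0.10), Ccnd2 (0.14) and Exoc8 (0.14), and Vegfa most like Gm6565 (0.05), Hs2st1 (0.06) and Magef1 (0.07). These distances describe 6 libraries, in which control library 1 weighs heavily.

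**Figure D4:**
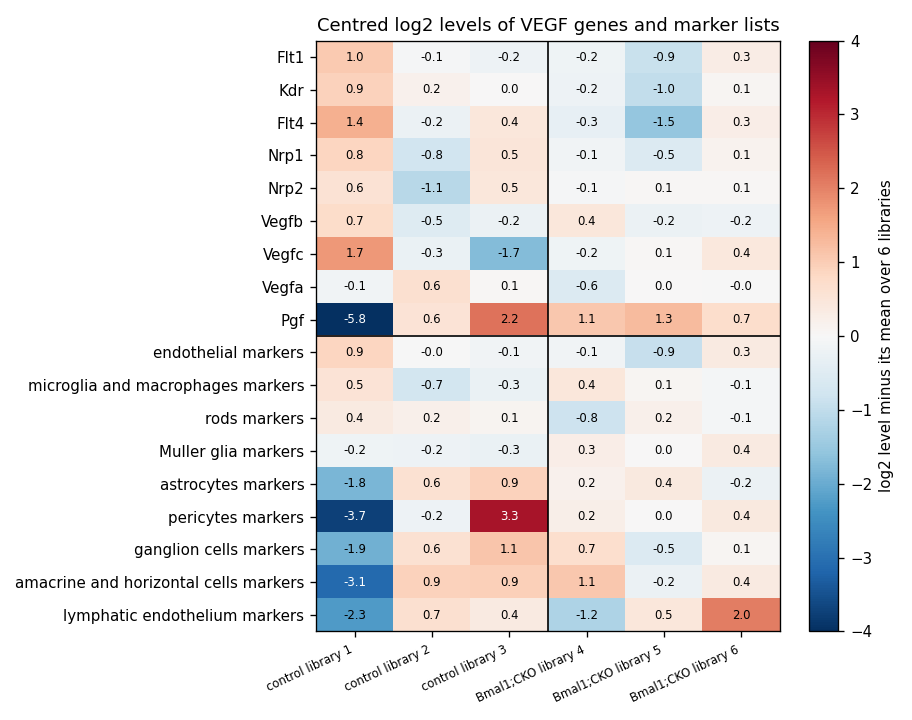
Log2 level minus its mean over the 6 libraries for the 9 VEGF genes (above the line) and for the mean of each marker list (below it), with libraries in columns and red for high. Flt1, Kdr and the endothelial markers share the same order of libraries at their extremes, high in control library 1 and low in Bmal1;CKO library 5. Pgf and the pericyte, astrocyte and ganglion cell markers are all lowest in control library 1 and highest in control library 3.

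Beyond the 9 genes, 116 genes that carry, modify or precede the VEGF signal were read in 6 lists, and 111 were tested. By limma-trend, edgeR, DESeq2 and limma-voom 0 had an adjusted p under 0.05, by limma-trend 8 had an unadjusted p under 0.05, where 4.92% of all tested genes did, and 11 (9.91%) had groups that did not overlap, a share near the 11.2% of all tested genes. Of the 111, 58 had positive and 53 negative fold changes, and the median was 0.02 on the log2 scale. Hif3a, counted among the 8 and the 11, passed the read filter only through the Bmal1;CKO libraries.

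Among 50 effectors below the receptors, 25 were higher and 25 lower, with a median of -0.015, and by edgeR and DESeq2 29 were lower. In 5 (10%) the groups did not overlap, near the 11.2% of all tested genes. Pik3r1, a regulatory subunit of PI3-kinase, had 3742, 3880 and 3360 normalized counts in control and 5084, 8662 and 5722 in Bmal1;CKO (log2 fold change 0.79, SE 0.28). Cdc42, a GTPase of filopodia, had 33195, 41293 and 42421 in control and 22129, 20978 and 29655 in Bmal1;CKO (-0.69, SE 0.26). Nfatc3, a calcium-regulated transcription factor, stood at 0.90, and Prkcd, named after its values were seen, at 0.39. The adjusted p was 0.883 by limma-trend for each of these 4.

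The 24 phosphatases, partners and trafficking proteins of the receptors had 9 higher and 15 lower, a median of -0.10 and 0 with separate groups. Cdh5 and Ptprb of this list are also endothelial markers. The gene of the highest level, Ptpn1, a phosphatase that acts on KDR, stood at 0.29 (SE 0.39), with overlapping groups. Of 7 genes for the maturation of VEGF-C and for Vegfd, 4 were tested and all 4 had a positive fold change with overlapping groups, though 1 was below 0 by edgeR and DESeq2 and 3 without control library 1. Pcsk7, a protease that can cleave pro-VEGF-C and is the most abundant of them, stood at 0.16 (SE 0.31). Ccbe1, which VEGF-C activation needs, had 0 to 14 reads per library and was not tested.

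In 14 genes that VEGF induces in endothelium, 8 were higher and 6 lower, with a median of 0.08, and without control library 3 only 2 were lower. The groups did not overlap in 2 of the 14 (14.3%), against 11.2% of all tested genes. Nr4a1, an immediate early nuclear receptor, had 2423, 2660 and 2143 normalized counts in control and 11764, 4683 and 4961 in Bmal1;CKO, so every Bmal1;CKO library was above every control library. Its log2 fold change was 1.44 (SE 0.39), with an adjusted p of 0.883 by limma-trend and 0.0852 to 1.00 over the alternatives, the lowest from DESeq2. Dusp5, a phosphatase of ERK, had 2226, 2750 and 2175 in control and 3560, 3765 and 3706 in Bmal1;CKO (0.63, SE 0.24, adjusted p = 0.883 by limma-trend). Dll4, the Notch ligand of tip cells that VEGF-A induces, stood at 0.10 (SE 0.44), and the tip cell genes Esm1 at -0.10 (SE 0.44) and Apln at -0.55 (SE 0.50), all 3 named for their role after their values were seen and all with overlapping groups.

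Of 12 class 3 semaphorins and plexins, which share the neuropilins with VEGF, 10 were tested, with 7 higher and 3 lower. The groups did not overlap in 1 of the 10 tested (10%), against 11.2% of all tested genes. Sema3f, a ligand of NRP2, had 1021, 675 and 1668 normalized counts in control and 2267, 2298 and 3501 in Bmal1;CKO, without overlap (log2 fold change 1.33, SE 0.41, adjusted p = 0.883 by limma-trend). In the 9 oxygen sensing genes upstream of Vegfa, 5 were higher and 4 lower, and 3 (33.3%) had separate groups against 11.2% of all tested genes, while edgeR, DESeq2 and limma-voom gave 6 lower. Hif1a, the hypoxia-induced activator of Vegfa, had 5756, 5951 and 6448 normalized counts in control and 1233, 3367 and 3789 in Bmal1;CKO (-1.27, SE 0.43). Arnt, its partner, had 1141, 1256 and 1318 in control and 406, 648 and 1076 in Bmal1;CKO (-0.91, SE 0.44). Hif3a, a low-level member of the family, had 0, 8 and 3 reads in control and 35, 33 and 17 in Bmal1;CKO. It reached 10 reads only in the Bmal1;CKO libraries, so it passed the filter only through the group where it was high. Its direction and its place among the separated genes of this list therefore carry no support for a genotype difference. The adjusted p was 0.883 by limma-trend for Hif1a, Arnt and Hif3a, and no single gene of the list passed the test. Vegfa, which lies downstream, stood at -0.38 (SE 0.31) with overlapping groups, and a link between it and these genes was not tested.

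**Figure D5:**
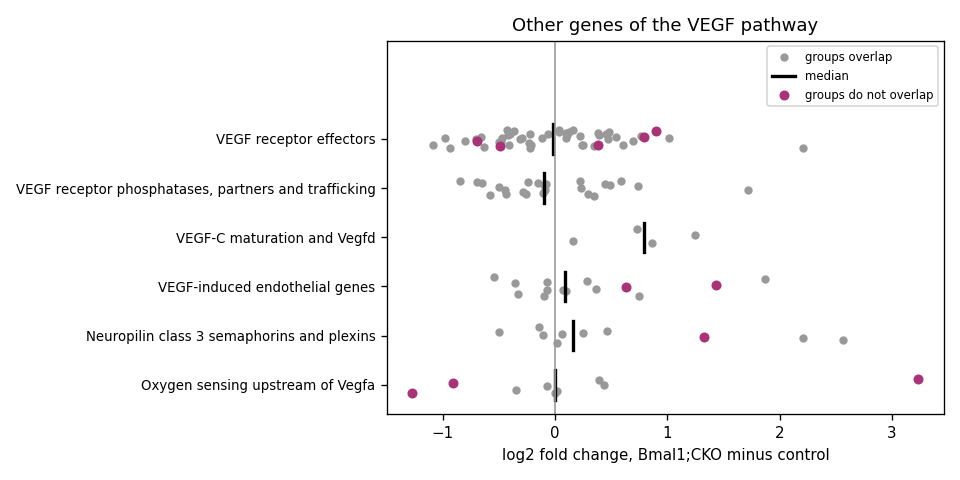
Log2 fold change of Bmal1;CKO over control for the tested genes of 6 VEGF pathway lists, with grey points where the groups overlap, purple points where they do not, and black bars for medians. Each list spreads on both sides of 0 apart from the 4 tested genes of VEGF-C maturation, and the 11 purple points lie in 4 of the 6 lists.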

How the data were processed

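RNA of sorted retinal VECs (P7.5, 3 control and 3 Bmal1;CKO animals) went through Smart v4 amplification and Nextera XT library preparation. The authors used Trimmomatic for trimming, Bowtie for alignment to mm10 (GRCm38) and featureCounts for counts per gene; use of strand is not given in the sources used here. The deposited signal is each count over its library's DESeq2 size factor (0.711 to 1.40), and dividing each column by its smallest step gave whole reads for 100% of values, within 0.01. The deposited table also holds the authors' fold changes and p-values, which were not used. Column numbers differ from the numbering of the labels, so each column is a replicate of its genotype only. The limma-trend p-values set the genotype difference against the spread between 3 libraries per group, after that spread was moderated over all tested genes. Depth of 71145068 to 104017800 reads leaves the counting error of reads small except for genes of a few reads. The RNA was amplified before sequencing, so depth does not bound the error of sampling molecules, which was not assessed.

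The 20459 genes that reached 10 reads in 3 or more libraries were fitted with limma-trend on log2(normalized count + 1), with Benjamini-Hochberg adjustment at an FDR of 0.05, in R 4.3.3 with limma 3.58.1. Fold changes are on that scale, where a larger pseudocount lowered those of low genes (Hif3a 3.65 with 0.5 and 1.56 with 10). A near-empty library weighs heavily on the same scale, as for Pgf, at 2.03 by limma-trend and 0.035 by DESeq2. Exact permutation tests over the libraries served for single values. The alternatives were edgeR 4.0.16 (quasi-likelihood, TMM scaling or DESeq2 size factors) and DESeq2 1.42.0 on the recovered reads, limma-voom, pseudocounts of 0.5 and 10, at least 1 read in total, at least 10 reads in every library, the median of the markers, and each library left out. The tests were also tried on simulated counts with set changes larger than those of most VEGF genes. That trial does not measure their power at the spread seen here. Levels per kb used the union of GENCODE M21 exons, in which 55141 of 55487 identifiers were found. Promoter windows are from RefSeq (GRCm38.p6). Other steps ran in Python 3.11.15 (numpy 2.4.6, pandas 2.3.3, matplotlib 3.10.9, scipy 1.17.1).

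The members and lists were chosen with earlier results of these data known. Named are the 9 genes, Bmal1, marker genes, up to 4 genes per pathway list with groups that do not overlap (smallest p first; otherwise the gene of highest level), the 3 genes most like Kdr, Flt1, Nrp1 and Vegfa among those of mean over 100 normalized counts, and genes marked as chosen after their values were seen. The values of 1 gene that this rule selects are not reported here.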

Additional observations from a re-analysis of the deposited data

How the results depend on the processing

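The direction of Vegfa, Flt1, Kdr, Flt4 and Nrp1 was negative in all 14 alternatives run for each. No VEGF gene had an adjusted p under 0.05 in any alternative. No paired analysis was possible because the column numbers do not match the replicate numbers of the labels. By edgeR with TMM scaling, edgeR with the DESeq2 size factors and DESeq2, 8, 8 and 8 of the 9 genes were lower, with -0.067, -0.063 and -0.063 for Vegfb, -0.44, -0.46 and -0.46 for Vegfc and -0.14, -0.14 and -0.14 for Nrp2. DESeq2 called 67 genes of all tested at an FDR of 0.05, and a minimum of 1 read in total or of 10 reads in every library called 1 each, while Pgf could not be tested under the last. With each library left out, 0 to 6 genes were called, the 6 without control library 1, 318 to 2332 had an unadjusted p under 0.05, as did 0 to 1 of the 9 (Nrp1 without control library 2) and 3 to 13 of the pathway genes, with 13 without control library 1 and 4 and 3 without Bmal1;CKO libraries 4 and 5. The log2 fold changes then ran from -0.25 to 0.37 for Vegfb, -0.64 to 1.11 for Vegfc, -0.35 to 3.62 for Pgf, -0.51 to 0.34 for Nrp2, -0.10 to 0.65 for Ptpn1 and -0.018 to 0.32 for Pcsk7. Against the mean of the endothelial markers the differences were -0.38 to 0.44 for Vegfa, -0.19 to 4.28 for Pgf, -0.097 to 0.026 for Flt1 and -0.25 to 0.43 for Nrp1, and with the median of the markers -0.13 for Vegfa, -0.12 for Nrp1, -0.27 for Flt1 and -0.84 for Flt4, whose groups then separated. The log2 ratios ran from -0.095 to 0.91 for Vegfb to Vegfa and -0.19 to 1.65 for Vegfc to Vegfa. The largest counts at an unadjusted p under 0.05 came without control library 3 (2332) and without control library 1 (1746), and the smallest without Bmal1;CKO libraries 5 (318), 4 (328) and 6 (558). Of the genes of VEGF-C maturation 0 were lower in the limma-trend fit and 3 without control library 1, and of the VEGF-induced genes 6 and, without control library 3, 2. The cause of these shifts was not tested.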
